A study of Mus musculus with 2 samples.

Results

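The genes described here are 10 that resting fibroblasts of the mouse heart transcribe: Inmt, Alkal2, Scara5, Hsd11b1, Dpep1, Ces1d, Htra1, Htra3, Smoc2 and Clec3b. All 10 symbols were found in both libraries, 10 of the 31053 genes in each count table. They were chosen because earlier values from the same cells were lower in fibroblasts after transverse aortic constriction (TAC), a narrowing of the aorta by surgery against which the left ventricle must pump. The difference between the sham and TAC libraries in fibroblasts is therefore given below as a description and supports nothing. How the genes are divided among fibroblast states within a library was also known in part, such as Alkal2 in cells with Vegfd and Adam33, and is described in the same way. The promoter sequences had no part in the choice.

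Non-cardiomyocytes were taken from hearts of male C57BL6/J wildtype mice on day 20 after sham surgery or TAC, and the labels name no transgene or drug for either group. Hearts were digested with collagenases and a protease, cardiomyocytes were removed by settling, red cells were lysed, and viable cells were sorted and run in droplets, with 1 library per group. The labels do not give the number of hearts or the age of the mice, so the spread between animals is unknown and no tests were run. Intervals are 95% intervals for counting error only.

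Fibroblasts of the healthy heart hold the collagen network in place and also carry genes for metabolism, hormone activation and signals to neighbouring cells. Under pressure overload a share of them turns to matrix production, marked by periostin (Postn). Inmt encodes indolethylamine N-methyltransferase, which methylates small amines. Hsd11b1 encodes the enzyme that regenerates active glucocorticoid inside cells, Ces1d a carboxylesterase that hydrolyses lipid esters, and Dpep1 a membrane dipeptidase that acts on leukotriene D4 and on cysteine-containing dipeptides. Alkal2 encodes a secreted ligand of the receptor tyrosine kinases ALK and LTK, and Scara5 a scavenger receptor that binds ferritin. Htra1 and Htra3 encode secreted serine proteases, Smoc2 a matricellular protein related to SPARC, and Clec3b tetranectin, a secreted lectin that binds plasminogen.

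Promoters are shown for the pair of genes with the largest difference between libraries over all depths and a pair with small differences, to set their start sites side by side. Each run is a RefSeq promoter of build GRCm38.p6, from 250 bases before to 50 after the annotated start, written 5′ to 3′ on the gene's own strand. Capitals mark matches to the motifs searched. Inmt lies at chr6:55174941-55175240 on the minus strand, Alkal2 at chr12:30884074-30884373 on the plus strand, Dpep1 at chr8:123185985-123186284 on the plus strand and Htra3 at chr5:35679731-35680030 on the minus strand.
Inmt: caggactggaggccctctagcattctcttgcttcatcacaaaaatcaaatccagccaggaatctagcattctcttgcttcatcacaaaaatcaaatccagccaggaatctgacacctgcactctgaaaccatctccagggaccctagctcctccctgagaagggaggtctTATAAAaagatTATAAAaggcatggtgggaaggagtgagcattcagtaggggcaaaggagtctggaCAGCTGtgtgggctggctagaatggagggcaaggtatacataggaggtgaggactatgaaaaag
Alkal2: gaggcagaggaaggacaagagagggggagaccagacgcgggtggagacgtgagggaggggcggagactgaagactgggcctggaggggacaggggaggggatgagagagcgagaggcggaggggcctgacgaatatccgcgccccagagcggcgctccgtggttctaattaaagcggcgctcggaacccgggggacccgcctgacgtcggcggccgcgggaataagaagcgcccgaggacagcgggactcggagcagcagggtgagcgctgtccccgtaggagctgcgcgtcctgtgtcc
Dpep1: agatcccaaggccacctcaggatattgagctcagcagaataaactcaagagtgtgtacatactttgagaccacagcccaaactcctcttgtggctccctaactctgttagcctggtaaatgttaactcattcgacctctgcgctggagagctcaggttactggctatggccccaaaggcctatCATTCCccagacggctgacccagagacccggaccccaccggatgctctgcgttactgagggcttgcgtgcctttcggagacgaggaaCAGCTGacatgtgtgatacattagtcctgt
Htra3: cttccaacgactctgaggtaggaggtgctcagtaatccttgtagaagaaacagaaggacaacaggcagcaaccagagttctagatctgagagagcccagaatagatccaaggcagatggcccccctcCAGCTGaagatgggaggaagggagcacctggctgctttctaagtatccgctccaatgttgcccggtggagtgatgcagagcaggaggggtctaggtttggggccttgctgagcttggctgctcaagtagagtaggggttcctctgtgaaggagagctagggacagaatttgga
The table held promoters for 6 of the 10 genes, which leaves out Scara5, Ces1d, Smoc2 and Clec3b. The Inmt window held TATAAA at 2 places, 80 and 69 bases before the RefSeq start. The GENCODE gene on the minus strand begins at 55175043, further upstream, so these distances hold for the RefSeq start only. No other of the 6 promoters held TATAAA, against 13.6% of 32851 promoters in all. CAGCTG, an E-box, was found in Inmt, Dpep1 and Htra3, and in 16.3% of all promoters. CATTCC was found in Dpep1 and in 14.7% of all promoters. None of the 6 windows held TGANTCA, which 7.81% of all promoters held, or AGAACA, which 19.0% held, or TTGCNNAA, which 10.8% held. Both strands were searched, and a match is a string of letters, not a binding site. The Alkal2 window was 68.3% G or C and the Inmt window 47.7%, around a median of 52.7% over all promoters.

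In all, 42490230 unique molecular identifiers (UMIs, each standing for a captured RNA molecule) were counted over 8426 barcodes after sham surgery and 96003109 over 8901 barcodes after TAC. Filters and removal of called doublets kept 7887 sham and 7860 TAC cells, with medians of 4881 and 11158 UMIs per cell, and 13 barcode sequences occurred in both libraries. Because depth differed, every cell was reduced at random to 3000 UMIs, and 1001 sham and 508 TAC cells with fewer were not used. Cells were assigned by marker genes outside the list of 10. The fibroblast gate took 5602 sham cells (81.4%) and 5297 TAC cells (72.0%), with medians of 5134.5 and 12269 UMIs before thinning. Tcf21, a transcription factor of cardiac fibroblasts, had a UMI in 70.7% of gated sham and 49.5% of gated TAC fibroblasts. The collagen gene Col1a2 had one in 95.2% and 99.2%. Both are among the markers of the gate, so these shares are no separate evidence of what the cells are. RNA of immediate early genes, which respond to tissue digestion as well as to stimuli in life, summed to 22696 CPM (UMIs of a gene per 1000000 UMIs of the cells) in sham and 12050 in TAC fibroblasts. RNA of 4 haemoglobin genes summed to 442 and 1059 CPM, and 10 cardiomyocyte genes to 45.1 and 69.5. Macrophage markers summed to 37.0 CPM in sham and 34.0 in TAC fibroblasts, mural markers to 32.8 and 25.7, endothelial to 10.8 and 23.6, lymphatic to 3.87 and 11.6 and neutrophil markers to 0.714 and 8.37, with 1 neutrophil marker at 0 in sham. The part of these in the results was not tested.

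Among the enzymes, Inmt on mm10 chromosome 6 (55170626 to 55175043) had the largest difference over all depths. It stood at 278 CPM in sham fibroblasts and 17.2 in TAC fibroblasts, 16.2-fold lower (14.3 to 18.4). With cells thinned to 5000 UMIs, which leaves out more of the shallow cells, its log2 difference was -3.22 in place of -3.94, and among fibroblasts of 5000 to under 10000 UMIs it was 5.11-fold lower. Of sham fibroblasts 32.0% held an Inmt UMI at 3000 UMIs per cell, against 2.68% of TAC fibroblasts, or 38.6% and 6.06% before thinning. Macrophages, which should lack it, had an Inmt UMI in 1.38% of sham and 0.112% of TAC cells at the same depth, from medians of 5120 and 10103.5 UMIs. The Inmt share in TAC fibroblasts was thus small, and it was above the share in macrophages of the same library. Ces1d on chromosome 8 (93166068 to 93197838) went from 220 to 45.2 CPM, 4.86-fold lower (4.48 to 5.27). Ces1d belongs to a cluster of close copies, so reads could be shared between them and its value is uncertain. Hsd11b1 on chromosome 1 (193221634 to 193264075) stood at 811 CPM in sham and 374 in TAC, 2.17-fold lower (2.11 to 2.24). Dpep1 on chromosome 8 (123186242 to 123201812) was at 1639 and 1193, 1.37-fold lower (1.35 to 1.40), and 83.5% of TAC fibroblasts still held a Dpep1 UMI, against 91.9% of sham. The enzymes therefore did not move as a block: Inmt and Ces1d were low in TAC fibroblasts, while Dpep1 and Hsd11b1 were still read in most of them.

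The ligand gene Alkal2 on chromosome 12 (30884322 to 30893854) was at 83.8 CPM in sham and 5.85 in TAC fibroblasts, 14.3-fold lower (11.6 to 17.9), and 5.91-fold lower in the same window of 5000 to under 10000 UMIs. Alkal2 was seen in 15.2% and 1.45% of fibroblasts at equal depth, or 20.7% and 4.25% before thinning, and in 0.691% and 0% of macrophages. The ferritin receptor gene Scara5 on chromosome 14 (65666403 to 65764826) went from 287 to 31.7 CPM, 9.07-fold lower (8.27 to 9.96). A Scara5 UMI was seen in 51.4% of sham fibroblasts and 7.66% of TAC fibroblasts, or 67.7% and 21.4% before thinning. Both genes were a minority signal in TAC fibroblasts, and only Scara5 had been read in most sham fibroblasts.

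The secreted proteases and matrix genes split widely. Htra1 on chromosome 7 (130936111 to 130985660) stood at 313 CPM in sham and 62.9 in TAC, 4.97-fold lower (4.64 to 5.32). Its relative Htra3 on chromosome 5 (35652023 to 35679782) stood at 2084 and 1694, 1.23-fold lower (1.21 to 1.25), with a UMI in 98.0% and 93.1% of fibroblasts. The difference on the log2 scale was thus -2.29 for Htra1 and -0.30 for Htra3. Clec3b on chromosome 9 (123150946 to 123157432) stood at 1207 CPM in sham and 540 in TAC, 2.24-fold lower (2.18 to 2.29). Smoc2 on chromosome 17 (14279506 to 14404790) was at 2012 and 1273, 1.58-fold lower (1.55 to 1.61). Of the 4 secreted proteins of this group, Htra1 and Clec3b were past a 2-fold difference and Smoc2 and Htra3 were within it.

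**Figure D1:**
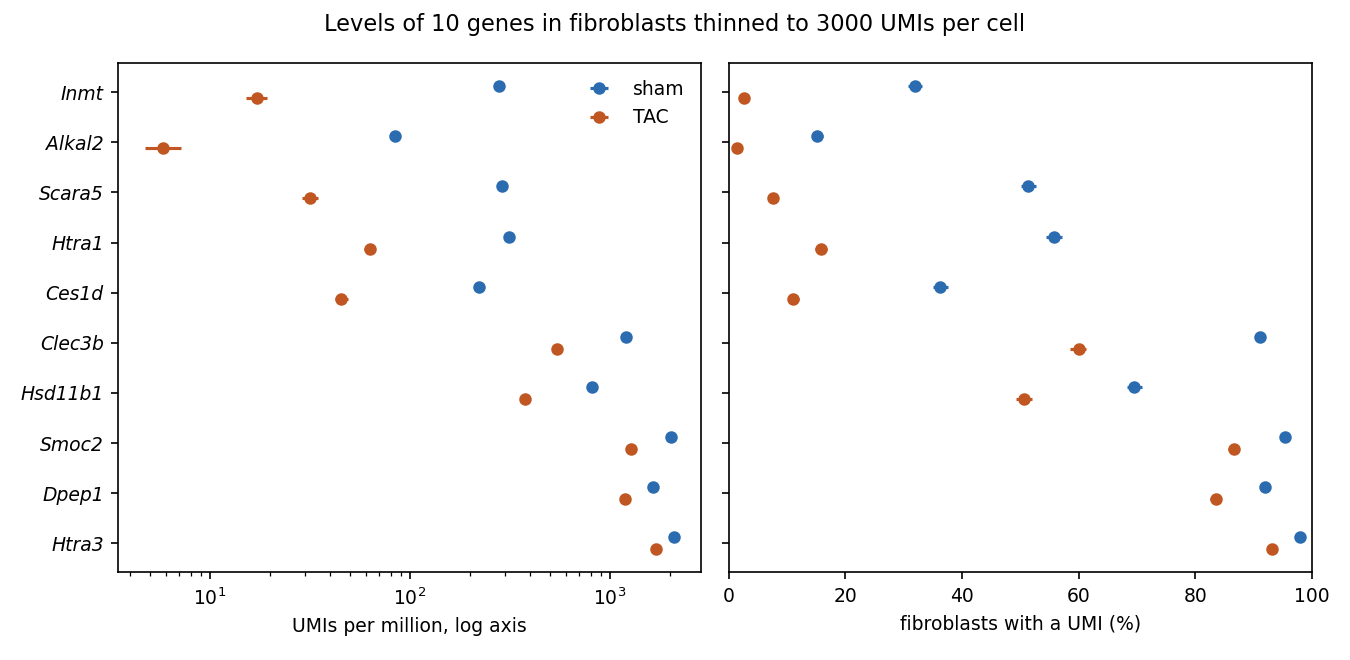
Levels of the 10 genes in fibroblasts thinned to 3000 UMIs per cell, as CPM on a log axis (left) and as the percent of fibroblasts with a UMI (right), with 95% counting intervals, for 1 sham and 1 TAC library. Inmt and Alkal2 lie farthest apart between libraries, and Dpep1 and Htra3 nearly coincide.

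In all, 7 of the 10 genes were at least 2-fold lower in TAC fibroblasts and 3 were within 2-fold, where 2.32% of 6731 genes with 20 or more CPM in a library were that much lower. The choice of the genes used this contrast, so the count describes them only. Their median log2 difference was -1.71, and that of all genes measured was -0.07. Ranked from the lowest difference among the 6731 genes, Inmt was 2nd, Alkal2 4th and Scara5 8th, while Smoc2 stood at 379, Dpep1 at 800 and Htra3 at 1566. The name of lost genes thus does not describe all 10. Without thinning, the mean UMIs per fibroblast were higher in the TAC library for Htra3 (11.0 in sham and 20.5 in TAC), Dpep1 (8.55 and 14.6), Smoc2 (10.8 and 15.7), Hsd11b1 (4.16 and 4.49) and Clec3b (6.41 and 6.71). They were lower for Inmt (1.34 and 0.208), Alkal2 (0.414 and 0.0597), Scara5 (1.56 and 0.421), Ces1d (1.17 and 0.558) and Htra1 (1.61 and 0.743). RNA per cell and sequencing depth cannot be told apart here. The 5 genes of the second set were lower on both scales, and the 5 of the first only as a share of each cell's RNA.

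Counted cell by cell at 3000 UMIs, a sham fibroblast held a UMI of a median of 6 of the 10 genes and a TAC fibroblast of 4. At least 7 of the genes were seen in 47.8% of sham and 3.00% of TAC fibroblasts. Inmt, Alkal2, Scara5, Ces1d and Htra1 were all missing from 10.2% of sham and 67.5% of TAC fibroblasts. Before thinning, the last shares were 3.46% and 33.1%, and the shares with at least 7 genes 70.8% and 23.4%. The whole distribution was shifted, and no separate group of TAC cells with the sham number of genes was seen.

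**Figure D2:**
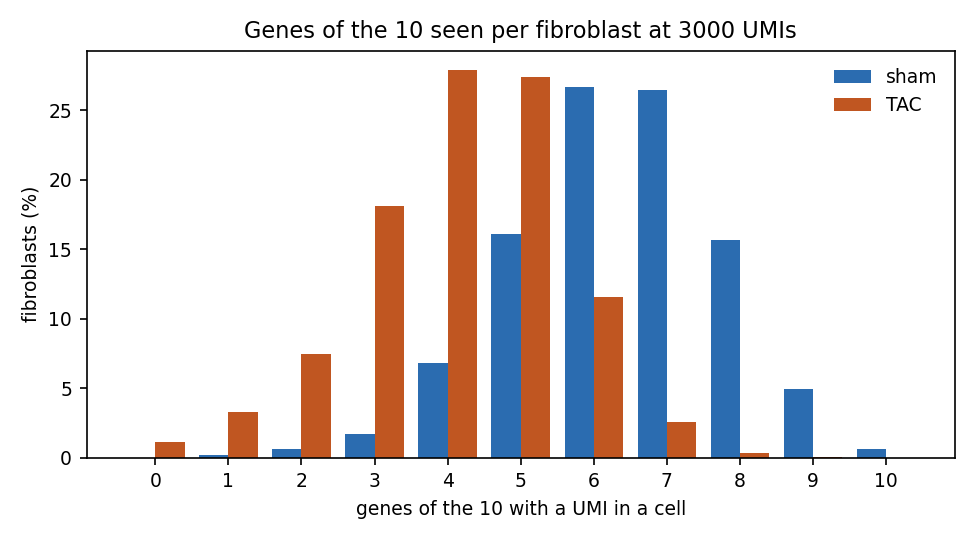
Percent of fibroblasts (vertical axis) by how many of the 10 genes had a UMI in the cell (horizontal axis), at 3000 UMIs per cell, for 5602 sham and 5297 TAC fibroblasts. Both libraries form a single peak, with medians of 6 and 4 genes.

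The genes also went together to different degrees within the sham library. Sham fibroblasts with an Inmt UMI (1791 cells) had Alkal2 at 169 CPM, and those without at 43.8, a ratio of 3.86. In TAC fibroblasts the same comparison gave 21.1 and 5.43 for Alkal2, a ratio of 3.89, from 142 cells with Inmt. The pair was thus concentrated in the same sham cells, and the few TAC cells with Inmt also read higher for Alkal2. The TAC ratio has no interval and rests on few UMIs, as all TAC fibroblasts held 93 of Alkal2. Its likeness to the sham ratio is therefore uncertain. Sham fibroblasts with a Smoc2 UMI had Hsd11b1 at 835 CPM, against 335 in those without. Inmt went the other way with Smoc2, at 271 in cells with Smoc2 and 418 in cells without. Ces1d and Alkal2 were mildly opposed: cells with Ces1d had Alkal2 at 67.1, and cells without at 93.4.

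A fibroblast state marked by Vegfd and Adam33 (217 sham and 104 TAC cells) held the most Inmt and Alkal2 of the states compared. In the sham library it held Inmt at 1086 CPM against 245 in all other fibroblasts, 4.42-fold higher (4.08 to 4.79), and Alkal2 at 450 against 69.1, 6.52-fold higher (5.71 to 7.42). Dpep1 was 1.83-fold higher there (1.75 to 1.92) and Scara5 1.63-fold higher (1.44 to 1.83). Ces1d, at 106 against 224 CPM, and Htra3, Smoc2 and Hsd11b1, with ratios of 0.696, 0.730 and 0.661, were lower there than in other sham fibroblasts. The state therefore held more of the amine-methylating enzyme and the ALK ligand but less of the esterase. In the TAC library the same markers picked cells with Inmt at 44.9 and Alkal2 at 38.5 CPM, still 2.70-fold (1.46 to 4.61) and 7.40-fold (3.67 to 13.6) above other TAC fibroblasts. Between libraries Inmt was 24.2-fold lower in this state (14.3 to 44.5) from 14 TAC UMIs, and Alkal2 11.7-fold lower (6.60 to 22.9) from 12. Hsd11b1 was at 544 and 571, a TAC over sham ratio of 1.05 whose interval of 0.871 to 1.26 spans 1. In this state 5 of the 10 genes were at least 2-fold lower, where 10.2% of all genes measured were.

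Pi16 and Dpp4 mark fibroblasts that lie around vessels in many tissues, but a gate on them took 52.6% of sham and 67.2% of TAC fibroblasts, so it is described as Pi16-positive cells only. The gate needed 2 UMIs of the pair, so cells with 1 UMI fell outside it. Dpp4 itself was at 26.5 CPM in sham and 1.89 in TAC fibroblasts, so the gate rested on Pi16 in the TAC library. In sham, Ces1d (ratio 1.42, 1.33 to 1.52), Scara5 (1.35, 1.27 to 1.43) and Clec3b (1.28, 1.25 to 1.32) were higher in these cells than in other fibroblasts. Alkal2 (0.455, 0.407 to 0.509), Hsd11b1 (0.519, 0.501 to 0.537) and Inmt (0.619, 0.584 to 0.656) were lower there, and Htra3 and Smoc2 stood at 1.02 and 1.01. Between libraries 6 of the 10 were at least 2-fold lower in the gated cells, where 2.39% of genes were, and Inmt was 16.5-fold lower (13.9 to 19.8).

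Bins of Pi16 UMIs, added after the values were seen, gave the same division as a gradient. From cells with 0 to cells with 7 or more Pi16 UMIs in the sham library, Hsd11b1 went from 1176 to 315 CPM, Inmt from 362 to 154 and Alkal2 from 137 to 31.6. Scara5 went from 245 to 427, Ces1d from 165 to 302 and Clec3b from 1018 to 1645. The steroid, amine and ligand genes thus lay at the low end of Pi16 and the ferritin receptor, esterase and tetranectin genes at the high end. The difference between libraries also varied along Pi16 for some genes. Hsd11b1 had a TAC over sham ratio of 0.379 (0.357 to 0.402) without Pi16 and 0.878 (0.803 to 0.961) at 7 or more. Htra3 had ratios of 0.687 (0.663 to 0.712) and 0.998 (0.964 to 1.03), and Smoc2 of 0.490 (0.470 to 0.510) and 0.827 (0.796 to 0.859). Ces1d went the other way, with a ratio of 0.282 (0.235 to 0.337) without Pi16 and 0.155 (0.132 to 0.182) at 7 or more. For Inmt the ratios at both ends, 0.0771 (0.0615 to 0.0956) and 0.0580 (0.0399 to 0.0819), had overlapping intervals. Of the 10 genes, 8 were at least 2-fold lower in cells without Pi16, where 2.46% of genes were, and 6 in cells with 7 or more, where 3.06% were.

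**Figure D3:**
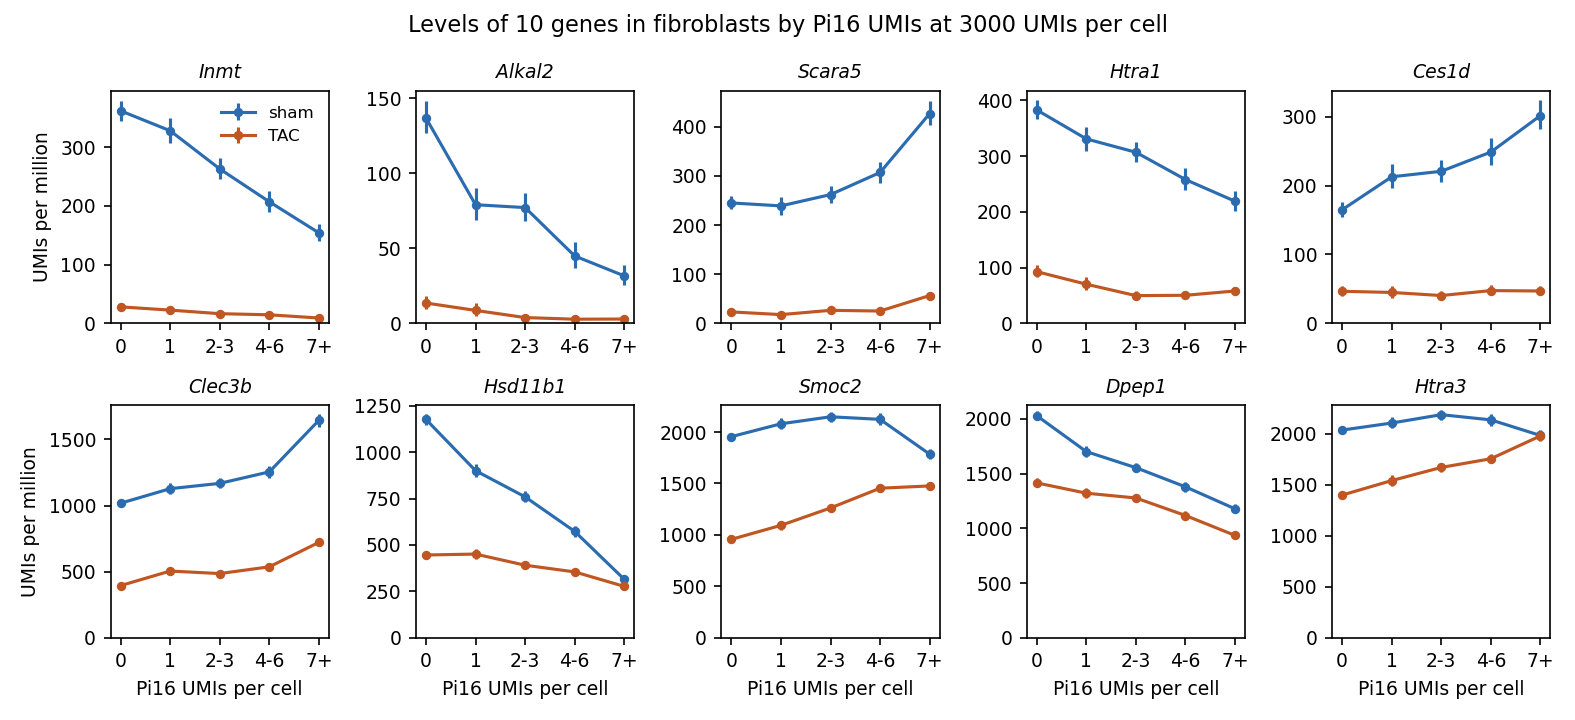
Levels of each gene (CPM, linear axes from 0) in fibroblasts by Pi16 UMIs per cell at 3000 UMIs, for the sham and TAC libraries, with 95% counting intervals. Hsd11b1 and Htra3 come together at 7 or more Pi16 UMIs, and Inmt, Scara5 and Clec3b stay apart in every bin.

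Periostin was read in 64.8% of TAC and 3.46% of sham fibroblasts, and within the TAC library each of the 10 genes was lower in cells with 5 or more Postn UMIs than in cells with none. Across that range Alkal2 went from 14.1 CPM to 0.253, which is 1 UMI in 1317 cells. Inmt went from 27.9 to 5.82, Hsd11b1 from 545 to 177 and Dpep1 from 1594 to 678. Smoc2 went from 1366 to 1095 and Htra3 from 1835 to 1344, the smallest shifts. The sham library showed a like division, with each of the 10 genes lower in the 194 cells with a Postn UMI than in the 5408 without. Inmt stood at 30.9 CPM in sham cells with Postn and 287 in those without, Hsd11b1 at 222 and 833, and Dpep1 at 660 and 1674. Postn and the 10 genes are shares of the same 3000 UMIs per cell and are therefore not independent readings.

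TAC fibroblasts without a Postn UMI (1867 cells, 35.2% of the gate) were also compared with the 5408 sham fibroblasts without one. Inmt was 10.3-fold lower (8.78 to 12.2), Scara5 6.23-fold (5.50 to 7.08), Alkal2 6.05-fold (4.82 to 7.69), Htra1 4.32-fold (3.91 to 4.79) and Ces1d 3.84-fold (3.43 to 4.32). These 5 were past 2-fold, where 1.95% of all genes were. The others were closer, with Clec3b 1.73-fold, Hsd11b1 1.53-fold, Smoc2 1.49-fold, Htra3 1.14-fold and Dpep1 1.05-fold (1.03 to 1.08) lower. In cells with no Postn UMI before thinning (5342 sham and 937 TAC cells), Inmt was 9.26-fold lower (7.50 to 11.6) and Dpep1 stood at a TAC over sham ratio of 1.02 (0.989 to 1.05). Inmt, Scara5 and Alkal2 were thus several-fold lower in TAC cells in which Postn was not read. Cells with 1 Postn UMI (85 sham and 915 TAC cells) gave another order. There Dpep1 was higher in TAC, at 886 CPM in sham and 1285 in TAC, a ratio of 1.45 (1.27 to 1.67). The ratios of Hsd11b1, 1.08 (0.869 to 1.36), and Htra3, 1.02 (0.924 to 1.12), had intervals that span 1. Alkal2 had the largest difference of the 10 in these cells, 23.7-fold lower (10.8 to 56.0) from 10 TAC UMIs. Inmt was 3.91-fold lower (2.06 to 7.08) and Scara5 7.26-fold lower (5.08 to 10.3) in these cells. A cell without a Postn UMI at this depth may still transcribe it.

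**Figure D4:**
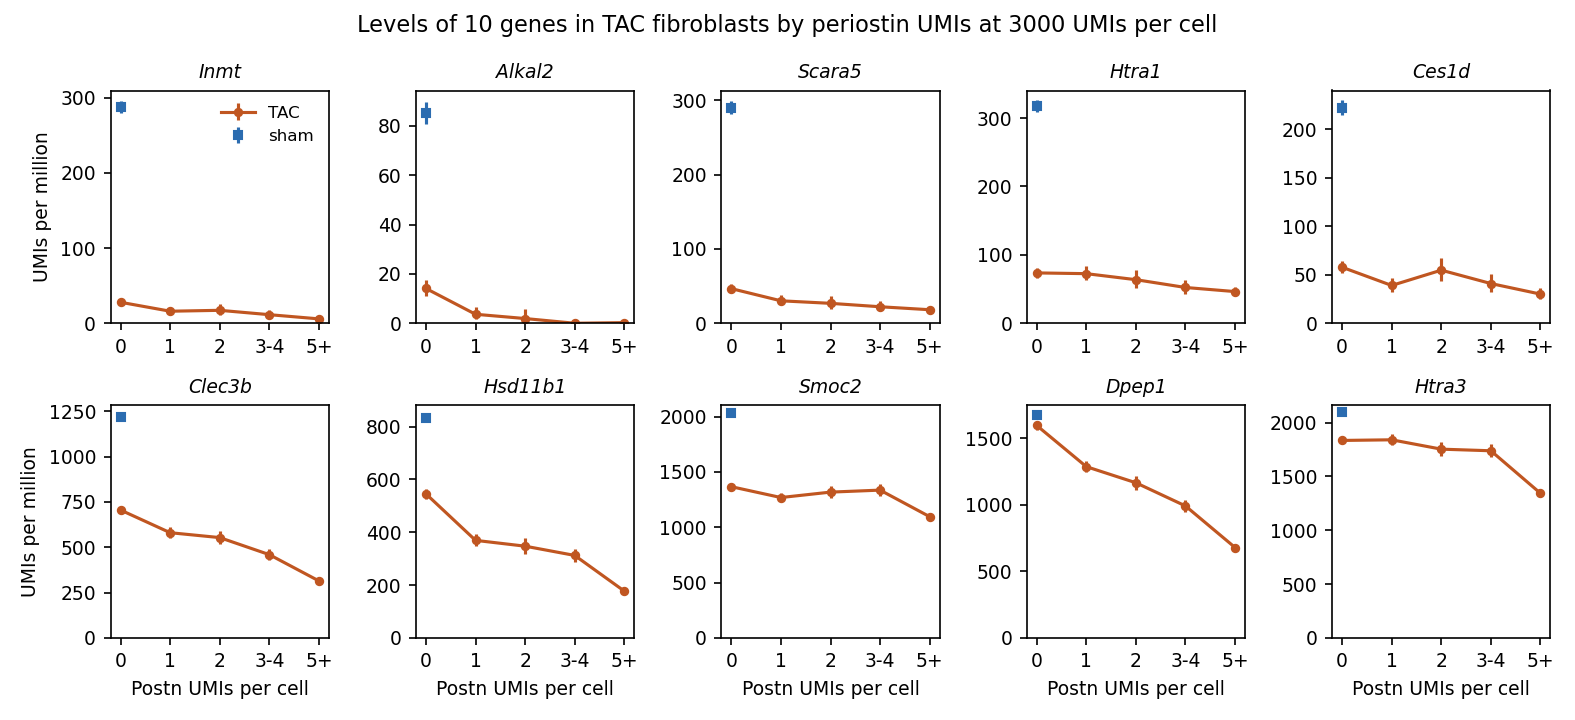
Levels of each gene (CPM, linear axes from 0) in TAC fibroblasts by Postn UMIs per cell at 3000 UMIs, with sham fibroblasts without Postn as a square and 95% counting intervals. The TAC point without Postn is far under the sham square for Inmt and Scara5 and close to it for Dpep1.

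Matrix-producing TAC cells marked by Comp and Thbs4 (318 cells outside the Pi16 gate) held the least of several of the genes. Alkal2 had 0 UMIs there, which allows up to 3.14 CPM, and Scara5 had 3 UMIs, 0.0939 of its level in other TAC fibroblasts (0.0193 to 0.276). Hsd11b1 was at 88.1 against 392 CPM, 4.45-fold lower, Clec3b 3.61-fold lower and Smoc2 2.93-fold lower. Htra1 and Inmt were not lower there: Htra1 was at 90.1 against 61.2, a ratio of 1.47 (1.17 to 1.84), and Inmt at 23.1 against 16.8, a ratio of 1.37 (0.845 to 2.12). With the Pi16-positive cells included (930 TAC cells, a set added after the values were seen), Scara5 stood at 0.308 of its level in other TAC fibroblasts (0.207 to 0.444) and Alkal2 again had 0 UMIs. Hsd11b1 had a ratio of 0.260, Clec3b 0.487 and Smoc2 0.470 in this wider set. Inmt turned to a ratio of 0.668 (0.452 to 0.959), and that of Htra1, 1.09 (0.923 to 1.28), had an interval that spans 1. Cells with Acta2 (61 TAC cells), a smooth muscle actin gene read in myofibroblasts, had no Inmt or Alkal2 UMI, but the upper bounds of the ratios to other TAC fibroblasts, 1.17 and 3.47, show that a difference was not detectable with so few cells. Their Htra1 ratio was 1.66 (0.997 to 2.61), and the intervals of Scara5 and Ces1d also spanned 1. The genes with more UMIs were lower in the Acta2 cells. Their ratios were 0.391 (0.313 to 0.483) for Dpep1, 0.392 (0.258 to 0.571) for Hsd11b1 and 0.529 (0.452 to 0.617) for Htra3. Those of Smoc2 and Clec3b were 0.663 (0.562 to 0.776) and 0.696 (0.541 to 0.882). Interferon-responding fibroblasts (133 sham and 307 TAC cells) had Inmt at 306 CPM in sham and 1 Inmt UMI in TAC. Before thinning, 4.23% of the TAC cells of this state held an Inmt UMI, at 8.52 CPM against 16.5 in all TAC fibroblasts. In that state 7 of the 10 genes were at least 2-fold lower in TAC, where 6.42% of genes were. Sham cells with Ccl11 (497) held more Alkal2 (ratio 1.64, 1.40 to 1.91), Hsd11b1 (1.40, 1.32 to 1.47) and Inmt (1.34, 1.23 to 1.47) than other sham fibroblasts, and less Smoc2 (0.910, 0.875 to 0.947). Only 19 TAC cells were of that kind and were not compared.

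**Figure D5:**
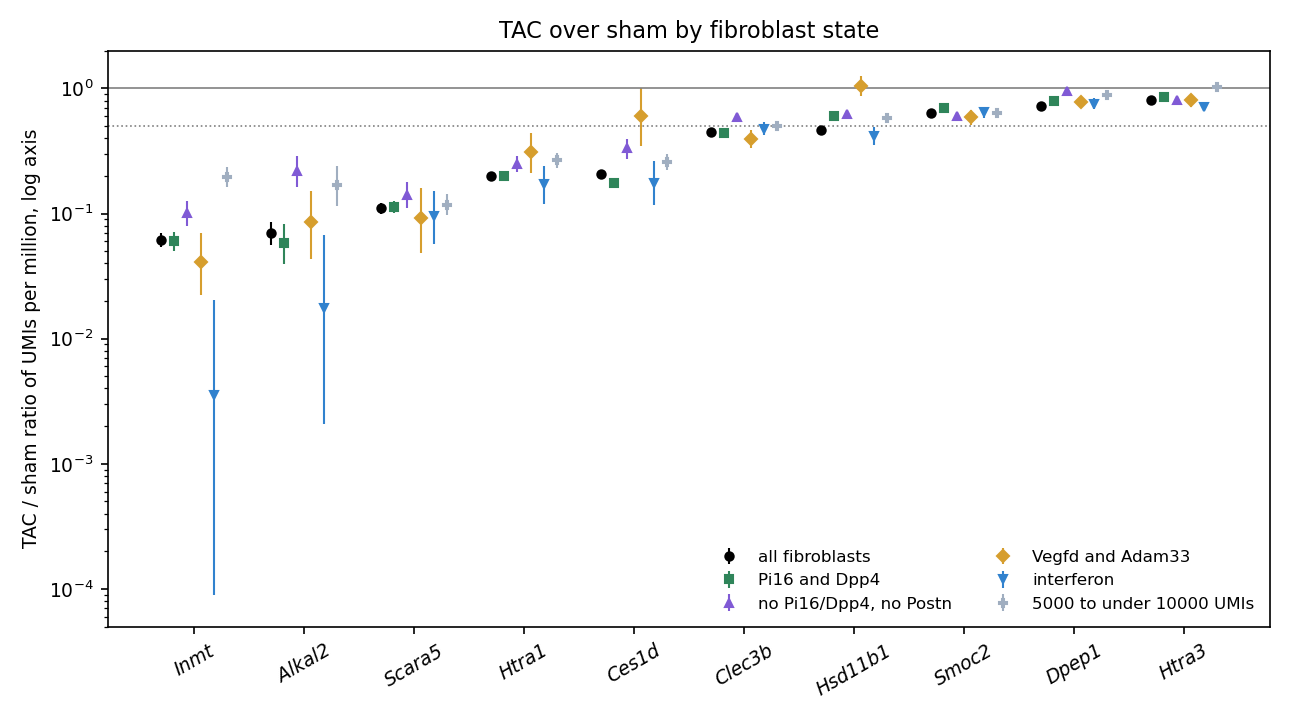
Ratio of TAC to sham CPM on a log axis for each gene, in all fibroblasts, in 4 fibroblast states and in fibroblasts of 5000 to under 10000 UMIs, with 95% counting intervals, a solid line at 1 and a dotted line at a 2-fold lower level. Inmt, Alkal2, Scara5 and Htra1 lie under the dotted line in every set, and Dpep1, Htra3 and Smoc2 lie above it in every set. The set labelled as having no Pi16 or Dpp4 held fewer than 2 UMIs of the pair.

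Macrophages served as the measure of background. In sham macrophages (1013 cells) the 10 genes stood at a median of 3.11% of their fibroblast level, between 2.73% and 3.93%. In TAC macrophages (896 cells) the median was 1.43%, between 0% and 2.59%. The share was nearly equal for all 10 in sham, and 3.65% of sham macrophages against 0.112% of TAC macrophages held at least 5 of the genes. In macrophages 5 of the genes, Hsd11b1, Dpep1, Htra3, Smoc2 and Clec3b, had 20 or more CPM in a library. All 5 were at least 2-fold lower in TAC, where 1.93% of genes were. All but Htra3 (61.9 and 29.0 CPM) reached that level in sham only, which favours a lower TAC value. The count therefore describes the background and is not a result about macrophages. With a stricter marker share of 90% for a class, the 10 genes summed to 0.794% of the fibroblast level in sham and 0.961% in TAC macrophages, so the sham macrophages no longer stood above. The part of mixed droplets in these levels was not tested.

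Htra1, Alkal2 and Hsd11b1 were read well above that background in a cell type other than fibroblasts. Endothelial cells held Htra1 at 82.1 CPM in sham (17 UMIs, 69 cells) and 72.2 in TAC (105 UMIs, 485 cells), a ratio of 0.879 (0.523 to 1.57). That was 26.3% of the fibroblast level in sham (15.3 to 42.1) and 115% in TAC (93.8 to 139). The Htra1 level of endothelial cells and fibroblasts thus differed in sham and could not be told apart in TAC. The other 9 genes stood at 0% to 4.00% of the fibroblast level in TAC endothelial cells. TAC mural cells (59, pericytes and smooth muscle cells led by Rgs5 and Kcnj8) held Alkal2 at 79.1 CPM, from 14 UMIs in 11 cells, against 5.85 in TAC fibroblasts. They also held Htra1 at 243 (43 UMIs), 386% of the fibroblast level (279 to 520), and Hsd11b1 at 147 (26 UMIs), 39.3% (25.7 to 57.6). Dpep1, Htra3 and Smoc2 stood at 0.947% to 1.33% of their fibroblast level in the same mural cells. The sham library held 5 mural cells, with 2 Alkal2 and 7 Htra1 UMIs, and no comparison between libraries was made. In 33 TAC cells of the T and NK class Hsd11b1 stood at 121 CPM (12 UMIs, 62.6 to 212), 32.4% of the fibroblast level (16.8 to 56.6). In 20 sham cells of that class it stood at 83.3 CPM (5 UMIs, 27.1 to 194), 10.3% of the higher sham fibroblast level (3.33 to 24.0). The CPM intervals of the 2 libraries overlapped. In 293 TAC lymphatic endothelial cells the 10 genes had a median of 1.87% of the fibroblast level, between 0% and 6.62%.

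Genes with related roles were read beside the 10 in fibroblasts. Of 25 other genes of resting fibroblasts, 2 were at least 2-fold lower in TAC, where 2.32% of all genes were. They were G0s2 (1030 and 237 CPM) and the lipase gene Lpl (1160 and 548). Another 2 were at least 2-fold higher, where 3.06% of all genes were. These were the matrix inhibitor of calcification Mgp (8163 and 22016) and the complement gene C4b (19.8 and 156). Both counts refer to the 25 genes. Their median log2 difference was -0.18, and 21 of the 25 were within 2-fold. Single genes went both ways, from -2.11 for G0s2 to 2.92 for C4b. Of 17 activation genes measured, 15 were at least 2-fold higher, where 3.06% of all genes were, among them Cilp (30.8 and 501). Htra1 and Htra3 were set beside the other family members, with Htra2 at 56.5 and 61.7 and Htra4 at 37.5 and 40.4 CPM. Sparc, a relative of Smoc2, was at 1618 and 5068, 3.13 times as high. Nr3c1, the glucocorticoid receptor gene, was at 244 and 157, and H6pd, which supplies the cofactor for Hsd11b1, at 43.3 and 48.1. Of 12 glucocorticoid-responsive genes, 2 were at least 2-fold lower, Dusp1 (1297 and 599) and Zbtb16 (42.2 and 15.6), where 2.32% of all genes were. Another 4 were at least 2-fold higher, where 3.06% of all genes were. These were Ddit4 (22.3 and 120), Mt2 (37.9 and 135), Per1 (20.8 and 46.8) and Fkbp5 (44.7 and 90.9). The median log2 difference of the 12 genes was 0.78. These genes thus went both ways, and Dusp1 is also an immediate early gene. A link of these genes to the level of Hsd11b1 was not tested. Ggt5, which acts before Dpep1 on leukotrienes and glutathione, was at 119 and 55.9. Of 9 ferritin and iron genes 4 were measured, and none was past 2-fold. Receptors and the second ligand of the Alkal2 system were not measured, summing to 0 CPM in sham and 0.0629 in TAC fibroblasts. The methyltransferase gene Nnmt (124 and 113) stayed within 2-fold, as did the carboxylesterase gene Ces2g (31.1 and 19.5).

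Depth and immediate early RNA moved with the libraries, and the differences were read within narrower sets that were added after the values were seen. Among fibroblasts of 5000 to under 10000 UMIs (2897 sham and 1149 TAC cells), Inmt was 5.11-fold lower (4.28 to 6.14), Alkal2 5.91-fold (4.13 to 8.74) and Scara5 8.48-fold (7.04 to 10.3), so that Scara5 had the largest difference of the 10 there. Inmt in sham was at 197 CPM there and 278 over all depths. The window took 51.7% of sham and 21.7% of TAC fibroblasts. Median depth in it was 5880 UMIs in sham and 8744 in TAC, so depth still differed. Htra3 turned to a ratio of 1.03 (1.01 to 1.06) in that window, and 5 of the 10 genes were at least 2-fold lower, where 2.57% of genes were. Among fibroblasts with at most 30 immediate early UMIs (1088 sham and 2317 TAC cells), Inmt was 16.3-fold lower (13.1 to 20.5) and Alkal2 11.2-fold (7.43 to 17.4). In that set 7 of the 10 genes were past 2-fold, where 2.45% of genes were.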

How the data were processed

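Raw UMI counts per gene and barcode were deposited as 1 matrix per library, and the file headers name Cell Ranger 3.1.0. The submitters' processing notes list mm10 and Seurat, without saying what Seurat was used for. That the deposited counts are whole numbers was checked. Gene positions came from GENCODE annotation, in which 30934 of 31053 gene IDs were found.

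Barcodes with at least 500 genes, 1000 UMIs and at most 15% mitochondrial UMIs were kept. Scrublet in Scanpy 1.11.5 (expected rate 0.07) removed 77 sham (0.967%) and 140 TAC (1.75%) barcodes as doublets. Each cell was thinned without replacement to 3000 UMIs. A class took a cell with at least 4 UMIs over at least 2 of its markers, when these made up at least 70% of all marker UMIs. Of the fibroblasts, 23 sham and 18 TAC cells had a share between 60% and 80%. Fibroblast states needed only a minimum of UMIs summed over their markers, 3 for the interferon state and 2 for each other named state, with no share rule. Leiden clusters gave 5611 sham and 5309 TAC fibroblasts, of which 5597 and 5293 were in the gate. Sums of UMIs over the cells of a class were given per 1000000 UMIs (CPM). Log2 differences used a pseudocount of 1. Ratios carry exact conditional binomial intervals, sums exact Poisson and shares Clopper-Pearson intervals. A count of 0 was bounded with 3 counts. Sets under 50 cells in a library were not compared between libraries. Thinning was tested on sham barcodes, and the ratio intervals and the 2-fold call on simulated counts. Filters, doublet calls and gates were not tested in this way.

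The 10 genes, the 15 other gene lists, the markers and the motifs were chosen with earlier results of these data known. All 10 genes are named, and of each list up to 4 genes with the largest difference; Dusp1 and Fkbp5 were named in addition after their values were seen. A few list genes are not reported here. A planned search for genes of like pattern had 4 points and was not read. With 1 library per group no test was possible.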

Additional observations from a re-analysis of the deposited data

How the results depend on the processing

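Differences of single genes were recomputed in fibroblasts, in Pi16-positive fibroblasts and in fibroblasts outside the Pi16 gate with no Postn UMI. The last set also left out Comp and Thbs4 cells, and some of its cells held 1 Pi16 UMI. Other settings were other depths, marker shares, doublets kept, a 5% mitochondrial limit, another seed, no thinning, a larger pseudocount and Leiden clusters. Of 280 such differences, 279 stayed below 0. The exception was Dpep1 in the set outside the Pi16 gate with no Postn UMI, at 0.04 on the log2 scale with 5000 UMIs per cell. The size of 8 values moved by over 1.5 times, all of Inmt or Alkal2: in fibroblasts Inmt went from -3.94 to -3.22 at 5000 UMIs and Alkal2 from -3.63 to -2.57 with a pseudocount of 10 CPM. The median of the 10 genes in fibroblasts (-1.71) was -1.62 at 5000 UMIs and -1.60 with a pseudocount of 10 CPM, and in Pi16-positive fibroblasts (-1.75) it was -1.66 and -1.65 under the same changes. Among alternatives added after the data were seen, the fibroblast median was -1.45 in cells of 5000 to under 10000 UMIs, where Htra3 was at 0.05. It was -0.50 for mean UMIs per cell without thinning, where Hsd11b1 (0.11), Dpep1 (0.77), Htra3 (0.90), Smoc2 (0.55) and Clec3b (0.07) turned to higher values in TAC. The number of genes at least 2-fold lower in fibroblasts was 7, and it was 6 at 5000 UMIs and 5 in the window of 5000 to under 10000 UMIs.

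The summed level of the 10 genes in macrophages moved most. In sham it was 3.08% of the fibroblast level, and 4.85% at 5000 UMIs, 3.84% and 0.794% with marker shares of 50% and 90%, 3.94% with doublets kept, 2.82% with seed 2 and 4.21% without thinning. In TAC it was 1.58%, and 1.88%, 0.961%, 2.27% and 2.31% with shares of 50% and 90%, doublets kept and no thinning. The sham excess over TAC was therefore not seen with the stricter marker share. With a minimum of 5 CPM in place of 20, 1 methyltransferase gene was at least 2-fold lower and 1 cardiomyocyte gene at least 2-fold higher, against 0 of each. No paired analysis was possible because each group is 1 library. Counting limits Alkal2 and Inmt most, with 93 and 273 UMIs in TAC fibroblasts.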
